A study of Mus musculus with 16 samples.

Results

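Grem1, Chrdl1, Chrd and Nog encode secreted antagonists of bone morphogenetic proteins (BMPs), Bmp2, Bmp4 and Bmp6 encode BMP ligands, and Bmpr1a, Bmpr1b and Bmpr2 encode BMP receptors. These 10 genes, out of 55385 gene identifiers in the count tables, were followed in RNA from the mouse dorsal hippocampus. They were listed by symbol and chosen by measured values of these libraries, in which Grem1 was already known to be higher with Dnmt3a2 than in controls at both days. The Dnmt3a2 against control values of the 10 genes are therefore given as a description, with intervals and without p-values, and nothing is supported with them. All 10 passed the filter on low counts, as did 16899 genes in all.

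The 16 libraries came from mice injected in the dorsal hippocampus with recombinant adeno-associated virus (rAAV) carrying either GFP, the control, or exogenous Dnmt3a2, a short isoform of the DNA methyltransferase Dnmt3a. After 3 weeks the mice underwent contextual fear conditioning, in which a chamber is paired with a shock. Tissue was taken 1 day or 5 days after that, giving the groups Control_1d, Dnmt3a2_1d, Control_5d and Dnmt3a2_5d with 4 libraries each. All 4 groups carried virus and all were conditioned, so the comparisons speak to Dnmt3a2 and to the day, not to virus or training. The labels used here name no strain, age, sex or viral promoter, and do not say whether a library was 1 animal. The p-values below therefore speak to library-to-library spread, which may be technical.

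Total estimated counts were 28.6 to 30.0 M per library, so that 1 CPM (counts per M counts of the library, after TMM scaling) stood for 28.4 to 30.4 estimated counts. Dnmt3a was at 32.7 to 37.7 CPM in the 8 control libraries and at 623 to 1249 CPM in the 8 Dnmt3a2 libraries. Markers of hippocampal neurons matched the label of the tissue: 6 of 6 dentate granule, 5 of 5 CA1 and 8 of 8 CA3 and CA2 markers were at 1 CPM or more in every library. Replicate 1 of Dnmt3a2_1d and of Dnmt3a2_5d stood apart, with a summed level of 10 choroid plexus markers of 876 and 1403 CPM against 40.7 to 210 CPM in the other 14 libraries. Ttr alone made up 773 and 1253 CPM of these 2 sums. On the mean log2 level after centring each marker, which weighs markers alike, they scored 2.855 and 3.61, against -1.235 to 1.387 in the other 14. Replicate 3 of Control_5d also stood apart. Its Y-linked transcripts Uty, Eif2s3y, Ddx3y and Kdm5d were at 2.46, 3.73, 8.66 and 3.82 CPM, below every other library, while Xist did not exceed 0.0667 CPM in any library. Its summed choroid plexus markers, at 210 CPM, lay above the 41.1 to 50.2 CPM of the other Control_5d libraries. CA3 and CA2 markers were higher too, at 511 against 399 to 418 CPM. Subiculum and neocortex markers were lower, at 254 against 303 to 345 CPM. The part of these differences in its member levels was not tested. In bulk RNA, fewer cells of a type and less RNA per cell cannot be told apart.

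BMP ligands are secreted dimers of the TGF-beta superfamily. They assemble a complex of type I receptors, such as Bmpr1a and Bmpr1b, with a type II receptor, such as Bmpr2, and the type I kinase phosphorylates Smad1, Smad5 and Smad9, which enter the nucleus with Smad4 and raise targets such as the Id genes. Gremlin, chordin, noggin and chordin-like 1 bind the ligands outside the cell and keep them from their receptors. In the hippocampus, BMP signalling is known for holding neural stem cells of the dentate gyrus in quiescence, and noggin for releasing them from it.

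Sequences around listed transcription starts are shown for the antagonist genes Grem1 and Chrd, on which the values below turn. A window of Bmpr1b is shown too, with the lowest CpG count among the listed windows of the members. CpG is a dinucleotide that Dnmt3a methylates. DNA methylation itself was not analysed here. Each window runs 5′ to 3′ from 250 bases before to 50 bases after the start, as listed by RefSeq on GRCm38.p6, with every CpG in capitals. The Grem1 window is chr2:113758599-113758898 on the minus strand, the Chrd window chr16:20732877-20733176 on the plus strand, and the Bmpr1b window, the first of 3 listed, chr3:141982215-141982514 on the minus strand. All 3 Bmpr1b windows lie inside the gene, whose annotated 5′ end is at 142169425. No window at that end was listed, so the CpG count there is not given.
Grem1: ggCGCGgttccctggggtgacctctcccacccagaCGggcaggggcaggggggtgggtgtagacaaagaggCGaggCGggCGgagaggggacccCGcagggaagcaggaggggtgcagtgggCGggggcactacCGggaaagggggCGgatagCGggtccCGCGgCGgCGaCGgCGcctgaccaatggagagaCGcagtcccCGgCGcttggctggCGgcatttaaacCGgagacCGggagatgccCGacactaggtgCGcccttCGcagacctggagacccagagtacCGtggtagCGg
Chrd: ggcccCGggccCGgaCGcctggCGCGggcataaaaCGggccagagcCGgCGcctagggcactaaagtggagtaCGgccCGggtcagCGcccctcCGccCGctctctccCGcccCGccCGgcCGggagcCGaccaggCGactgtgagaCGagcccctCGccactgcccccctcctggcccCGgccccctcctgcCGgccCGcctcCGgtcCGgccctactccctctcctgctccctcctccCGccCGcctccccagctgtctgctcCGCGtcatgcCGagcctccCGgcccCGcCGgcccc
Bmpr1b: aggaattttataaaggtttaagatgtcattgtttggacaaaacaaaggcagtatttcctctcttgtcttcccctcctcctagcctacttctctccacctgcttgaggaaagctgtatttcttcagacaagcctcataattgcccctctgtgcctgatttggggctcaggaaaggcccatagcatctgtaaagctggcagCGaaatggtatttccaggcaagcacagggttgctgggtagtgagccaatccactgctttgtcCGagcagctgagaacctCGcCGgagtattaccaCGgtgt

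The Grem1 window held 28 CpGs, more than 85.8% of the 32851 windows in the table, whose median was 7. The Chrd window held 34 and the Bmpr1b window 5, more than 92.3% and 38.0% of windows. Windows were matched for 7 of the 10 members by symbol. The Bmpr1a window held 48 CpGs, the Bmp6 window 27, the Bmpr2 window 23 and the Bmp4 window 12. Short motifs were searched on both strands. The first was GGCGCC, a GC-rich sequence bound by BMP-activated Smads, which is its own reverse complement and contains a CpG. GGCGCC was present in the Grem1, Chrd, Bmpr1a and Bmpr2 windows and in 11.9% of all windows. The second, CCAAT, was present in those of Grem1, Bmpr1a and the first of Bmpr1b, against 37.4% of all windows. The last, TATAAA, was present in the first window of Bmpr1b and no other window of the members, against 13.6% of all windows. A match describes these letters only.

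The members spanned a wide range per length. On the scale of CPM per kilobase of merged exons, averaged over 16 libraries, Bmpr2 (7.94 ± 0.784, SD, n = 16), Bmpr1a (7.68 ± 0.293) and Chrd (6.62 ± 0.999) were highest, and these neighbours did not differ beyond their spread. Nog followed at 3.24 ± 0.371, then Bmpr1b at 2.41 ± 0.289 and Grem1 at 2.40 ± 0.798, which did not differ beyond their spread over all libraries. By group mean their order was not the same with and without Dnmt3a2. Grem1 averaged 1.59 in Control_1d and 1.78 in Control_5d, below Bmpr1b at 2.23 and 2.34. In Dnmt3a2_1d and Dnmt3a2_5d it averaged 3.14 and 3.08, above Bmpr1b at 2.68 and 2.38. Bmp6 (1.43 ± 0.494), Bmp4 (0.921 ± 0.171), Chrdl1 (0.836 ± 0.15) and Bmp2 (0.698 ± 0.142) were lowest, each within the spread of its neighbour. The levels did not sort by role: noggin lay above Bmpr1b, and Chrdl1 among the ligands. Divided by the longest transcript instead, Chrd passed Bmpr1a and Chrdl1 passed Bmp4, and the order of the others did not move. Bmp2 and Bmp4 rested on the fewest reads, 42 to 94 and 41 to 83 estimated counts per library.

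Grem1 (ENSMUSG00000074934, chromosome 2, 113746164 to 113758646, minus strand, protein-coding) encodes gremlin 1, a DAN-family antagonist of Bmp2, Bmp4 and Bmp7. At 1 day it was at 6.62, 6.67, 7.01 and 6.14 CPM in Control_1d replicates 1 to 4, and at 12.02, 13.1, 12.5 and 14.4 CPM in Dnmt3a2_1d. At 5 days it was at 8.38, 8.64, 4.26 and 8.19 CPM in Control_5d and at 14.4, 13.1, 10.7 and 12.9 CPM in Dnmt3a2_5d. Every Dnmt3a2 library lay above every control library, and the control library that stood apart was the low replicate 3 of Control_5d. The fold was 1.97 at 1 day (log2 0.98, SE 0.16, 95% interval 0.64 to 1.31) and 1.73 at 5 days (log2 0.79, SE 0.15, 0.46 to 1.13). Without Control_5d replicate 3 the log2 difference at 5 days was 0.60 (SE 0.10). Grem1 was counted from 121 to 437 estimated reads per library.

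**Figure D1:**
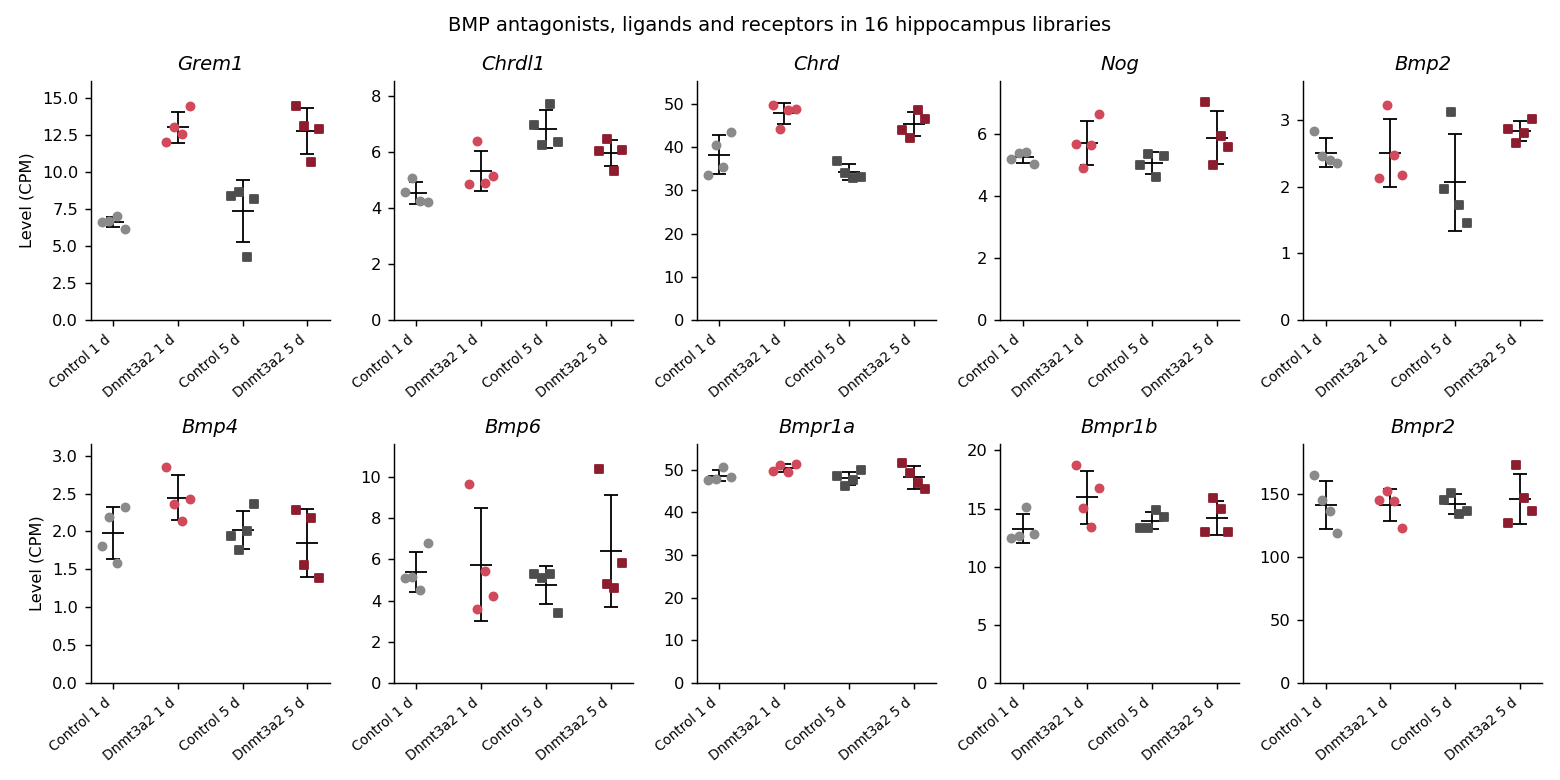
Level of each member in CPM (vertical axes, from 0) in the 16 libraries by group, 1 point per library, with the mean and SD of 4 libraries as black bars. Grem1 and Chrd lie higher in all Dnmt3a2 libraries than in the control libraries of the same day, Chrdl1 is lowest in Control_1d and highest in Control_5d, and Bmp6 has 1 high library in each Dnmt3a2 group.

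Chrd (ENSMUSG00000006958, chromosome 16, 20733127 to 20742384, plus strand) encodes chordin, which binds Bmp2 and Bmp4 and is cut by tolloid proteases to release them. It was at 33.6, 40.5, 35.4 and 43.6 CPM in Control_1d and at 49.7, 44.3, 48.6 and 48.8 CPM in Dnmt3a2_1d. At 5 days the values were 36.8, 34.0, 33.0 and 33.2 CPM in Control_5d and 44.0, 42.1, 48.6 and 46.6 CPM in Dnmt3a2_5d. Here too the groups did not overlap at either day, although Control_1d replicate 4 came close to the lowest Dnmt3a2_1d library. The fold was 1.25 at 1 day (log2 0.32, SE 0.07, interval 0.16 to 0.48) and 1.32 at 5 days (log2 0.41, SE 0.07, 0.24 to 0.57). Chrd shares 239 exon bases, 3.82% of its merged exons, with Thpo, the thrombopoietin gene on the opposite strand. Whether reads were counted by strand is not stated in the labels, so the Chrd counts could hold reads of Thpo. Thpo was at 6.66 ± 1.19 and 8.64 ± 1.13 CPM in Control_1d and Dnmt3a2_1d and at 5.92 ± 0.903 and 7.29 ± 1.00 CPM in Control_5d and Dnmt3a2_5d (SD, n = 4), and its part in the Chrd values was not tested.

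The other antagonists gave no such separation. Nog (ENSMUSG00000048616, chromosome 11, 89300638 to 89302332) encodes noggin, which blocks the receptor-binding faces of BMPs. It was at 5.03 to 5.43 CPM in Control_1d, 4.93 to 6.66 in Dnmt3a2_1d, 4.61 to 5.38 in Control_5d and 5.00 to 7.03 in Dnmt3a2_5d, and the groups overlapped at both days. Its log2 difference was 0.12 (SE 0.12) at 1 day and 0.21 (SE 0.12) at 5 days. Chrdl1 (ENSMUSG00000031283, X chromosome, 143285674 to 143394262) encodes chordin-like 1, also called neuralin or ventroptin, a BMP4 antagonist that astrocytes secrete. It was at 4.58, 5.06, 4.26 and 4.20 CPM in Control_1d and 4.84, 6.39, 4.89 and 5.13 CPM in Dnmt3a2_1d. In Control_5d it was at 6.95, 6.24, 7.71 and 6.34 CPM and in Dnmt3a2_5d at 6.01, 6.45, 5.31 and 6.05 CPM. The Dnmt3a2 libraries lay mostly above the controls at 1 day and mostly below them at 5 days, with overlap at both, and the log2 differences were 0.23 (SE 0.12) and -0.19 (SE 0.12).

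**Figure D2:**
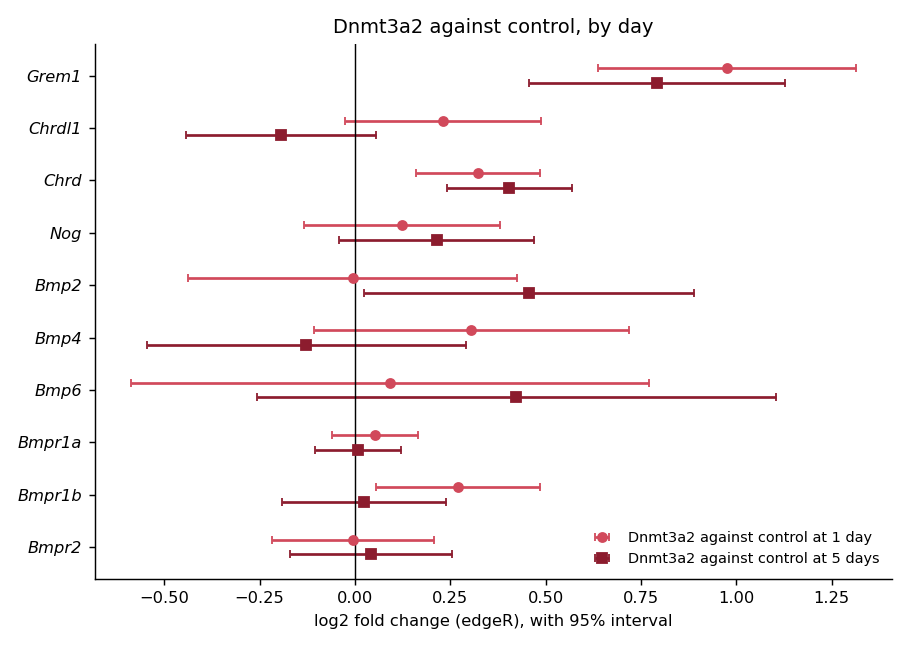
Log2 fold change of each member, Dnmt3a2 against control, from edgeR (horizontal axis), at 1 day (circles) and 5 days (squares), with 95% intervals from 4 libraries a group. Grem1 (0.98 and 0.79) lies farthest from 0 at both days, the intervals of Grem1 and Chrd lie above 0 at both, and those of Bmpr1a and Bmpr2 are narrow and hold 0.

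The ligand transcripts were few and scattered. Bmp2 (ENSMUSG00000027358, chromosome 2, 133552159 to 133562885) was at 2.36 to 2.83 CPM in Control_1d and 2.13 to 3.23 in Dnmt3a2_1d, a log2 difference of -0.01 (SE 0.20). At 5 days it was at 1.97, 3.12, 1.73 and 1.46 CPM in Control_5d and 2.87, 2.67, 2.80 and 3.03 CPM in Dnmt3a2_5d (log2 0.46, SE 0.20, interval 0.02 to 0.89). Replicate 2 of Control_5d lay above all Dnmt3a2_5d libraries, and without it the difference was 0.72 (SE 0.18). That was the upper end over each library left out in turn, which ran from 0.318 to 0.724. Without Control_5d replicate 3 it was 0.38 (SE 0.21). Bmp4 (ENSMUSG00000021835, chromosome 14, 46383520 to 46390669), a ligand that steers neural precursors towards astrocytes, was at 1.58 to 2.32 CPM in Control_1d, 2.14 to 2.85 in Dnmt3a2_1d, 1.76 to 2.36 in Control_5d and 1.38 to 2.28 in Dnmt3a2_5d. Its log2 differences of 0.31 (SE 0.19) at 1 day and -0.13 (SE 0.19) at 5 days had opposite signs, and their intervals held 0.

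Bmp6 (ENSMUSG00000039004, chromosome 13, 38345107 to 38500302) was at 5.11, 5.16, 4.50 and 6.80 CPM in Control_1d and 9.69, 3.61, 5.44 and 4.23 CPM in Dnmt3a2_1d. It was at 5.31, 5.11, 5.28 and 3.40 CPM in Control_5d and 10.4, 4.80, 4.61 and 5.82 CPM in Dnmt3a2_5d. The 2 high libraries, replicate 1 of each Dnmt3a2 group, are those rich in choroid plexus transcripts, and the rest of the Dnmt3a2 libraries lay in the range of the controls. All 10 choroid plexus markers were detected, 2 of them at 1 CPM or more in every library. Their summed level was 40.7 to 71.0 CPM in Control_1d, 43.8 to 876 in Dnmt3a2_1d, 41.1 to 210 in Control_5d and 45.0 to 1403 in Dnmt3a2_5d. With all libraries the log2 difference of Bmp6 was 0.09 (SE 0.31) at 1 day and 0.42 (SE 0.31) at 5 days. Without those 2 libraries it was -0.28 (SE 0.18) and 0.09 (SE 0.18). Bmp6, at a mean of 5.58 CPM, shares 224 exon bases (5.74% of its own) with Txndc5 on the opposite strand, a gene at 49.7 CPM. If reads were counted without strand, the Bmp6 counts could hold reads of Txndc5, and their share was not tested.

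**Figure D3:**
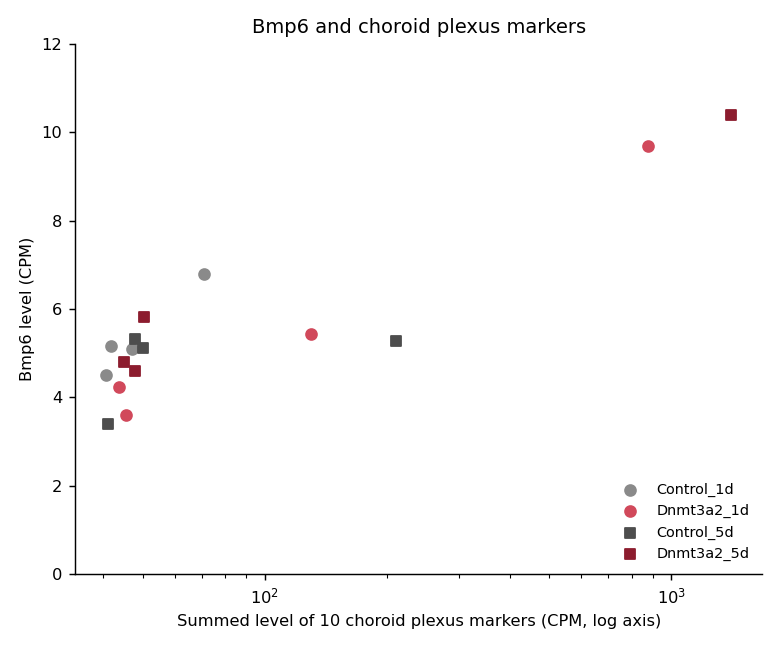
Bmp6 level in CPM (vertical axis) against the summed CPM of 10 choroid plexus markers (horizontal log axis), 1 point per library, by group. Dnmt3a2_1d replicate 1 (9.69 CPM) and Dnmt3a2_5d replicate 1 (10.4 CPM) lie apart at upper right, and the other 14 libraries lie between 3.40 and 6.80 CPM.

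The receptors differed little between the groups in level, apart from Bmpr1b at 1 day, whose difference varied with the libraries left out. Bmpr1a (ENSMUSG00000021796, chromosome 14, 34410734 to 34503341), a type I receptor, was at 48.6 ± 1.36, 50.4 ± 0.933, 48.0 ± 1.53 and 48.2 ± 2.73 CPM (SD, n = 4) in Control_1d, Dnmt3a2_1d, Control_5d and Dnmt3a2_5d. Its intervals, -0.06 to 0.17 at 1 day and -0.10 to 0.12 at 5 days on the log2 scale, were the narrowest among the members. Bmpr2 (ENSMUSG00000067336, chromosome 1, 59763400 to 59879014), the type II receptor, was at 142 ± 19.1, 141 ± 12.5, 142 ± 7.80 and 146 ± 19.8 CPM in the same order, with log2 differences of -0.00 and 0.04 (SE 0.10 each). Bmpr1b (ENSMUSG00000052430, chromosome 3, 141837136 to 142169425), the other type I receptor, was at 12.5, 12.7, 15.1 and 12.8 CPM in Control_1d and 18.7, 15.1, 13.4 and 16.8 CPM in Dnmt3a2_1d. The groups overlapped, since Control_1d replicate 3 lay above the lowest Dnmt3a2_1d library, and the log2 difference was 0.27 (SE 0.10, interval 0.05 to 0.48). The highest library, Dnmt3a2_1d replicate 1, was rich in choroid plexus and interferon response transcripts. Without the 2 choroid-rich libraries the difference was 0.18 (SE 0.10), and without the 3 interferon-rich libraries 0.16 (SE 0.10). Over each library left out in turn it ran from 0.185 to 0.346. At 5 days Bmpr1b was at 13.4 to 14.9 CPM in Control_5d and 13.0 to 15.9 in Dnmt3a2_5d, a log2 difference of 0.02 (SE 0.10). Bmpr1a shares 290 exon bases with the antisense gene Gm17110, which averaged 0.359 CPM.

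In the edgeR fit over all genes, at an adjusted p of 0.05, 1 of the 10 members was called at 1 day, Grem1, where 0.0888% of the 16899 genes tested were called. At 5 days 2 were called, Grem1 and Chrd, where 0.320% of genes were called. Both members also had groups that did not overlap at either day, with Dnmt3a2 higher, which held for 1.65% of genes at 1 day, 2.99% at 5 days and 0.325% at both. These comparisons were known when the members were chosen, so nothing is read from the counts. The call of Grem1 at 1 day ended without Control_1d replicate 2 or without the 3 libraries rich in interferon response transcripts (replicate 1 of Control_1d, Dnmt3a2_1d and Dnmt3a2_5d), although its log2 difference there was 0.98 (SE 0.18) and 1.01 (SE 0.19). At 5 days it ended without Control_5d replicate 4, without Dnmt3a2_5d replicate 1, 2 or 4, without the interferon-rich or the choroid-rich libraries, and when only the groups compared were fitted. That of Chrd ended without Control_5d replicate 2, 3 or 4 or Dnmt3a2_5d replicate 3 or 4.

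Among markers of the cell types the dissection could hold, none of 13 lists had groups that did not overlap in summed level at 1 day. At 5 days 2 of the 13 did. The 6 dentate granule markers summed to 524 to 603 CPM in Control_5d and 487 to 516 CPM in Dnmt3a2_5d, and the 4 general neuronal markers to 11560 to 12520 and 11050 to 11340 CPM. On a score that weighs each marker alike, the mean log2 level after centring each marker, the groups overlapped for both lists. Dentate granule markers scored -0.026 to 0.183 in Control_5d and -0.089 to 0.046 in Dnmt3a2_5d. General neuronal markers scored -0.003 to 0.035 and -0.074 to 0.041. All of these markers were detected, and their part in the values of Grem1 and Chrd was not tested. The 10 fibroblast markers, whose cells line the meninges and vessels, summed to 106 to 145 CPM in Control_1d, 114 to 173 in Dnmt3a2_1d, 113 to 144 in Control_5d and 116 to 212 in Dnmt3a2_5d, with overlap at both days.

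The comparison of days was not used to choose the members, and asks whether their levels differ between 1 and 5 days after conditioning. In controls no member passed the edgeR test, nor did any of the 16899 genes (0.0% called). At an unadjusted p under 0.05 there were 2 members, Chrdl1 and Chrd, beside 3.54% of all genes, and DESeq2, limma-voom and limma-trend called none of the 10. Chrdl1 was 1.51-fold higher in Control_5d, with every Control_5d library above every Control_1d library (log2 0.59, SE 0.12, interval 0.335 to 0.844). Its unadjusted edgeR p was 5.98e-05, but it did not pass after adjustment over the 16899 genes (edgeR adjusted p = 0.999). Non-overlapping groups with 5 days higher were found for 1.15% of all genes in this comparison. Grem1 had a log2 difference of 0.16 (SE 0.16, edgeR adjusted p = 0.999). Without Control_5d replicate 3 it was 0.35 (SE 0.10, edgeR adjusted p = 0.846), since the other Control_5d libraries, at 8.19 to 8.64 CPM, lay above every Control_1d library. Without Control_5d replicate 2 it was 0.07 (SE 0.17). Chrd differed by -0.16 (SE 0.08, edgeR adjusted p = 0.999).

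In the Dnmt3a2 groups no member passed in edgeR either, and again 0.0% of genes were called. Bmp4 was the 1 member at an unadjusted p under 0.05, beside 10.8% of all genes, and DESeq2, limma-voom and limma-trend called no member. Grem1 in Dnmt3a2_5d against Dnmt3a2_1d had a log2 difference of -0.03 (SE 0.15, interval -0.35 to 0.30, edgeR adjusted p = 0.972). Bmp4 was at 2.44 ± 0.299 CPM at 1 day and 1.85 ± 0.448 CPM at 5 days (SD, n = 4; log2 -0.41, SE 0.19, edgeR adjusted p = 0.452), and Chrdl1 was 0.16 higher (SE 0.12, edgeR adjusted p = 0.64). Between the days, the Dnmt3a2 effects themselves differed past the threshold for no member and for 0.0% of genes in edgeR, with 1 member, Chrdl1, at an unadjusted p under 0.05 (2.13% of all genes) and none called by DESeq2, limma-voom or limma-trend. For Grem1 it was -0.18 (SE 0.22, interval -0.66 to 0.29, edgeR adjusted p = 1), -0.37 without Control_5d replicate 3 (SE 0.14, edgeR adjusted p = 1) and -0.10 without Control_5d replicate 2 (SE 0.22). For Chrd it was 0.08 (SE 0.11, edgeR adjusted p = 1) and for Chrdl1 -0.42 (SE 0.16, edgeR adjusted p = 1).

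The amount of delivered Dnmt3a varied among the 8 Dnmt3a2 libraries, which allowed Grem1 to be set against it within those libraries. Pearson's r of the log2 CPM values was 0.07 (exact permutation p = 0.845) and Spearman's rho -0.07 (exact permutation p = 0.882), with n = 8. With the mean of each day taken away they were 0.15 (exact permutation p = 0.688) and 0.00 (exact permutation p = 1). Adjusted over these 4 values by Benjamini-Hochberg, each p was 1. Without the 2 libraries farthest from the Dnmt3a median, Dnmt3a2_1d replicates 1 and 4, r was -0.30 (n = 6). The library with the least Dnmt3a, Dnmt3a2_1d replicate 1 at 623 CPM, held 12.02 CPM of Grem1, and the library with the most, Dnmt3a2_5d replicate 2 at 1249 CPM, held 13.1 CPM.

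**Figure D4:**
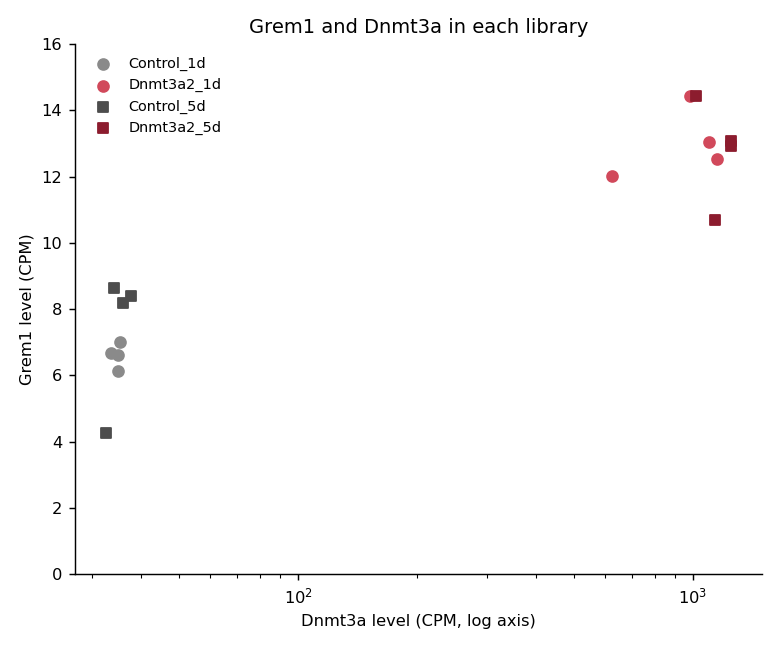
Grem1 level in CPM (vertical axis, from 0) against Dnmt3a level in CPM (horizontal log axis), 1 point per library, by group. The 8 control libraries lie at 4.26 to 8.64 CPM of Grem1 and the 8 Dnmt3a2 libraries at 10.7 to 14.4 CPM, with no slope among the latter beyond their scatter.

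Among 13062 genes with an established symbol and a mean of at least 1 CPM, Dnmt3a had the pattern most like that of Grem1 over the 16 libraries (Pearson's r of log2 CPM 0.889). Next came Stard8 (0.868), Penk, the enkephalin precursor (0.857), Pacsin2, a membrane-bending endocytic protein (0.849), and Htr2a, a serotonin receptor (0.845). These values include the difference between control and Dnmt3a2 libraries that brought Grem1 here, and without the 2 libraries farthest from the Grem1 median they were 0.792 to 0.934. After the mean of each group was taken away, the 5 most alike were Utp6 (0.868), Uty (0.864), Ghsr (0.842), Arhgap12 (0.835) and Nr4a2 (0.83). Without Control_5d replicate 3, the library low in Grem1 and in Y-linked transcripts, those values were 0.557 to 0.745. The Control_5d mean was not taken anew after leaving that library out, so these values still carry part of its effect. Among the members, Chrd and Nog had the highest r with Grem1 over the 16 libraries, 0.729 and 0.626, and Chrdl1 and Bmpr2 the lowest, 0.03 and 0.091. All are descriptions of libraries that share depth and dissection.

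Beyond the members, 56 further genes of the pathway were listed by role, of which 44 passed the filter on low counts. The list was fixed with earlier results of these data known, so its Dnmt3a2 against control p-values are given as a description. In the edgeR fit 0 of the 44 were called at 1 day, with 4 at an unadjusted p under 0.05 (7.17% of all genes), 1 called by DESeq2 (Fst) and 0 by limma-voom or limma-trend. At 5 days 1 was called, higher with Dnmt3a2, and 9 were at an unadjusted p under 0.05 (8.01% of all genes). The median log2 difference of the 44 was 0.03 at 1 day and 0.04 at 5 days, beside 0.00 and 0.01 over all genes tested, and 26 of 44 lay above 0 at each day, beside 50.9% and 52.8% of all genes. The highest and lowest genes of each role are named by their mean difference over both days, leaving out genes that average under 1 CPM. In the comparison of days in controls 0 of the 44 were called by edgeR, with 1 at an unadjusted p under 0.05 (3.54% of all genes). In the Dnmt3a2 groups 0 were called, with 3 at an unadjusted p under 0.05 (10.8% of all genes). DESeq2, limma-voom and limma-trend called none of the 44 in either.

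The gene called was Fst, which encodes follistatin, an antagonist of activins that also binds BMPs. It was at 1.36, 2.28, 1.40 and 1.82 CPM in Control_5d and rose to 3.70, 4.80, 4.10 and 5.98 CPM in Dnmt3a2_5d (log2 1.43, SE 0.20, edgeR adjusted p = 0.00119). At 1 day it was at 2.13 ± 0.541 and 3.92 ± 0.378 CPM (SD, n = 4; log2 0.88, SE 0.20, edgeR adjusted p = 0.152). Fst was listed with earlier results of these data known, so its values are a description and nothing is supported with them. Of the 13 antagonists tested outside the members, 7 lay above 0 at 1 day and 6 at 5 days. Sostdc1, an antagonist of BMPs and Wnt named after its values were seen, had the next largest differences, with folds of 1.69 at 1 day and 2.11 at 5 days that did not pass (edgeR adjusted p of 0.817 and 0.611), and was highest in the 2 libraries rich in choroid plexus transcripts. The lowest by the mean of both days was Vwc2l, a chordin-like secreted protein, at -0.43 (SE 0.45) and -0.22 (SE 0.45). Among the 3 proteases that cut chordin, Tll2 was highest, at 1.61 ± 0.699 CPM in Control_5d and 2.97 ± 0.550 CPM in Dnmt3a2_5d (log2 0.89, SE 0.29, edgeR adjusted p = 0.324). Tll1 was lowest, with differences of -0.05 (SE 0.21) and 0.16 (SE 0.21).

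Of the 12 further ligands 4 were tested, and the highest and lowest, Bmp7 and Gdf10, averaged -0.01 and -0.18 on the log2 scale over both days. Gdf10 was at 18.6 ± 1.96 and 16.7 ± 0.872 CPM in Control_1d and Dnmt3a2_1d and at 19.9 ± 1.98 and 17.2 ± 0.388 CPM in Control_5d and Dnmt3a2_5d (SD, n = 4; edgeR adjusted p = 0.75 and 0.424). Of 8 further receptors and co-receptors tested, none was called by edgeR. Acvr1, a type I receptor, was the lowest, at 33.2 to 36.4 CPM in Control_5d and 28.2 to 31.5 CPM in Dnmt3a2_5d (log2 -0.24, SE 0.06, edgeR adjusted p = 0.127), and DESeq2 called it. Acvr2b, a type II receptor, was the highest, with a difference of 0.32 (SE 0.20) at 5 days (edgeR adjusted p = 0.769).

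Among the signal carriers and targets no gene was called by edgeR at either day. The 6 carriers tested ran from -0.05 to 0.09 at 1 day and from -0.08 to 0.13 at 5 days on the log2 scale. Smad9, a BMP-activated Smad, was at the upper end at both days and Smurf2, a ubiquitin ligase that acts on Smads and receptors, at the lower end at 5 days. Of the 10 targets 0 were called by edgeR at either day, and DESeq2, limma-voom and limma-trend called 0. At an unadjusted p under 0.05 there was 1 at 1 day (7.17% of all genes) and 0 at 5 days (8.01% of all genes). Their median was 0.05 at 1 day and 0.07 at 5 days, beside 0.00 and 0.01 for all genes, and 7 and 6 of the 10 lay above 0. Id1 was at 8.09 ± 0.681 and 8.16 ± 0.634 CPM in Control_1d and Dnmt3a2_1d and at 6.90 ± 0.961 and 6.78 ± 1.45 CPM in Control_5d and Dnmt3a2_5d. Id3 was at 23.1 ± 3.20, 24.7 ± 3.70, 20.7 ± 2.95 and 22.2 ± 5.33 CPM in the same order (SD, n = 4). In the same order, Id2 was at 58.7 ± 7.68, 54.7 ± 3.92, 59.05 ± 5.48 and 56.6 ± 4.6 CPM. Id4 was at 79.2 ± 5.47, 93.5 ± 14.5, 70.7 ± 6.62 and 76.9 ± 5.34 CPM. Id1 and Id3 are the most used readouts of BMP signalling, and all of these Id genes were named after their values were seen. Msx1, a homeobox target, was the highest target by the mean of both days, with 0.36 (SE 0.36) and 0.26 (SE 0.36). Its values of 11.1 and 12.8 CPM in the 2 choroid-rich libraries carried this, and the other Dnmt3a2_5d libraries, at 3.78, 4.77 and 5.04 CPM, lay below the Control_5d mean of 5.50 CPM. Smad6, an inhibitory Smad, was the lowest target by that mean, with -0.31 (SE 0.21) at 1 day, but stood at 0.08 (SE 0.21) at 5 days, above the median of the targets.

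**Figure D5:**
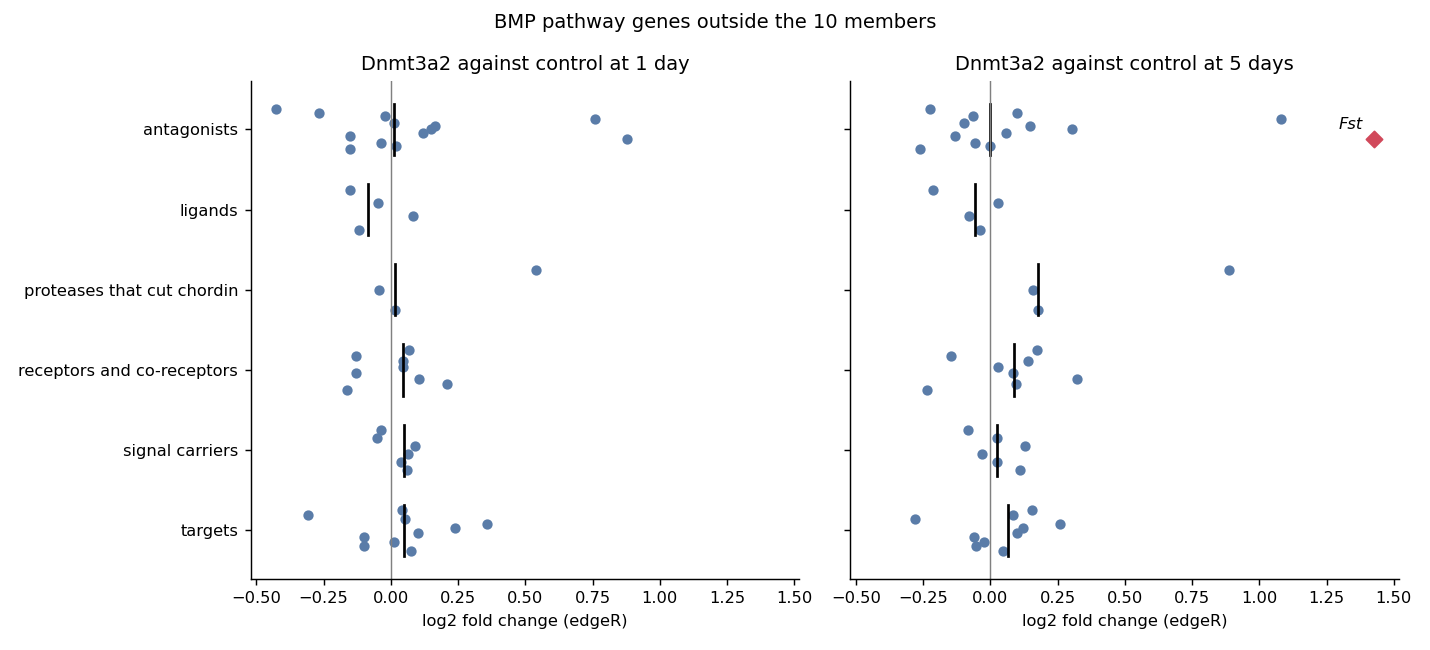
Log2 fold change (horizontal axis, edgeR) of the 44 pathway genes outside the members, Dnmt3a2 against control at 1 day (left) and 5 days (right), 1 point per gene by role, with the median of each role as a black line. The 1 gene called, Fst at 5 days (1.43), is drawn as a diamond, and the medians of the roles lie between -0.08 and 0.18.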

How the data were processed

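The authors deposited, per sample, expected counts (estimated read counts per Ensembl gene, not normalised, 26.2% of values not whole) and log2 CPM for 16907 genes. Tools listed in the submitters' processing notes are kallisto 0.4.6, Trim Galore 0.6.4 and edgeR 3.17, with build GRCm38.p6. The annotation release and read strand were not given in the sources used here. The deposited log2 values matched edgeR's filterByExpr, TMM and log2 CPM of the counts with a largest difference of 0.

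Counts were rounded, filtered by group, TMM-scaled and fitted in edgeR 4.0.16 (R 4.3.3) with robust quasi-likelihood, 1 term per group, all 16 libraries, and Benjamini-Hochberg adjustment over 16899 genes. Intervals used t with 12 degrees of freedom. CPM uses the same factors. Genes were named and placed with GENCODE M21 (GRCm38), which held 55144 of the 55385 identifiers. No 2 libraries were alike within sampling noise (lowest chi-square per gene 4.22 over 120 pairs).

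The members, lists, rules and alternatives were chosen with earlier results of these data known. Genes named outside the members were those called, the highest and lowest of each role with a mean of at least 1 CPM, and the 5 most alike to Grem1. Eif2s3y, Ddx3y, Kdm5d, Xist, Thpo, Txndc5, Id1, Id2, Id3 and the genes named in the closing section were named after their values were seen. Alternatives used DESeq2 1.42.0, limma 3.58.1, other filters and scaling, a replicate block and left-out libraries.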

Additional observations from a re-analysis of the deposited data

Results flagged for a closer look

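Over 44 sets of 4 libraries (10 members and Dnmt3a in 4 groups), 3 libraries lay farther from the rest of their group than Dixon's 95% limit, and chance flags about 1 in 20 sets. Grem1 was at 4.26 CPM in Control_5d replicate 3, against 8.19 to 8.64 CPM in the other libraries of the group, with a gap of 0.897 of the range. Bmp6 was at 3.40 CPM in Control_5d replicate 4, against 5.11 to 5.31 CPM, with a gap of 0.896 of the range. Bmpr1b was at 15.1 CPM in Control_1d replicate 3, against 12.5 to 12.8 CPM, with a gap of 0.88 of the range. The causes were not tested.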

How the results depend on the processing

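Members called at 1 day, 1 as reported, were 2 with DESeq2 and with no low-count filter (Grem1 and Chrd), 0 without the 3 interferon-rich libraries (Grem1 log2 then 1.01, SE 0.19), and 0 to 2 with each library left out. Members called at 5 days, 2 as reported, were 1 when only the groups compared were fitted, 1 without the 2 choroid-rich and 1 without the 3 interferon-rich libraries (Chrd each time), and 0 to 2 with each library left out. The causes were not tested. Pathway genes called outside the members were 1 at 1 day with DESeq2 and with no low-count filter (Fst), and 2 at 5 days with DESeq2 (Fst and Acvr1). In the comparisons of days and of effects between days, no member was called under any alternative run. With a replicate block, members called were 1 at 1 day and 2 at 5 days, and no count of members or pathway genes moved. The numbers pair no samples in the labels, and 10 of 24 pairs of equal number correlated above 0.1 (-0.102 to 0.45). The r of Grem1 with Dnmt3a went from 0.068 to -0.298 without the 2 libraries farthest in Dnmt3a. The log2 difference of Grem1 ran from 0.921 to 1.012 at 1 day and from 0.604 to 0.877 at 5 days over each library left out, and that of Chrd from 0.265 to 0.39 and from 0.369 to 0.441. All genes called numbered 15 at 1 day, but 65 with DESeq2, 34 with no low-count filter, 7 with only the groups compared, 6 without Control_1d replicate 2 and 7 without Dnmt3a2_1d replicate 3. At 5 days they numbered 54, but 143, 94 with only the groups compared, and 90 and 105 without the choroid-rich and interferon-rich libraries. They numbered 29, 30 and 26 without Control_5d replicate 1, 3 or 4, 33 and 22 without Dnmt3a2_5d replicate 3 or 4, and 82 without Control_1d replicate 3. For 5 days against 1 day in Dnmt3a2 they numbered 0, but 48 with DESeq2 6 with no low-count filter and 1 without Dnmt3a2_5d replicate 1, and for the difference between days 0, but 1 with DESeq2. Bmp2 and Bmp4, at 41 to 94 estimated counts, are the members that depth limits most.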

Other observations

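The 2 choroid-rich libraries also held the highest values of other genes of the pathway, named after their values were seen. Sostdc1, an antagonist of BMPs and Wnt known from choroid plexus, was at 10.5 CPM in Dnmt3a2_1d replicate 1 and 12.8 CPM in Dnmt3a2_5d replicate 1, against 2.32 to 4.57 CPM in the other 14 libraries. Msx1 was at 11.1 and 12.8 CPM in these libraries, against 3.78 to 6.97 CPM in the others. Bmp7 was at 8.78 CPM in Dnmt3a2_5d replicate 1 but at 5.60 CPM in Dnmt3a2_1d replicate 1, within the 4.26 to 6.81 CPM of the other 14. The part of choroid plexus tissue in these values was not tested. Id4, a target of BMP signalling in neural precursors, was at 110.3, 75.6, 90.4 and 97.5 CPM in Dnmt3a2_1d and 76.2, 69.8, 79.3 and 82.3 CPM in Dnmt3a2_5d, with overlap (log2 -0.28, SE 0.09, edgeR adjusted p = 0.327).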
